A study of Mus musculus with 6 samples.

Results

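The genes described here are 8 Toll-like receptors (Tlr1, Tlr2, Tlr3, Tlr4, Tlr6, Tlr7, Tlr9 and Tlr13) and the lipopolysaccharide (LPS) co-receptors Cd14 and Ly96, 10 genes of the 55335 in the table. They were chosen by name, with no threshold on a measured value, but with earlier results of these data known. RNA was read from primary microglia after 24 h of co-culture with neutrophils that had been isolated magnetically from injured spinal cords of adult male C57BL/6 mice at 3 days after spinal cord injury (SCI). The neutrophils came either from mice with intact Cd177 (WT neutrophils, the WT group, 3 libraries) or from Cd177 knockout mice (KO neutrophils, the KO group, 3 libraries). In both groups the microglia themselves were of WT genotype, from brains of newborn C57BL/6 mice, grown in mixed culture for 14 days and sorted after the co-culture as Ly6G-negative cells. The comparison asked how the loss of Cd177 in the neutrophils altered the transcripts of the microglia. It is not stated whether the libraries of a group came from separate cultures, so p-values measure the spread between libraries, which may be technical.

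Toll-like receptors (TLRs) are membrane proteins that bind microbial or damage-derived molecules and, through the adaptors MyD88 and TRIF, switch on NF-κB, MAP kinases and interferon regulatory factors. TLR2, paired with TLR1 or TLR6, recognises lipoproteins at the cell surface, and TLR4, held together with MD-2 (the product of Ly96), recognises LPS that CD14 hands over. TLR3, TLR7, TLR9 and TLR13 sit in endosomes, where they recognise double-stranded RNA, single-stranded RNA, CpG DNA and bacterial ribosomal RNA, respectively. Microglia are the macrophages of the central nervous system and are known to carry most of these receptors.

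Estimated depth was 15.7 to 19.4 in units of 1e+06 fragments per library, and 11371 to 11406 genes per library had at least 1 FPKM (fragments per kilobase and per 1e+06 mapped fragments). Mitochondrial genes held 11.1% to 11.3% of the FPKM sum in the WT group and 14.3% to 14.6% in the KO group, and the 4 calls described next also passed with each library rescaled to a common sum without these genes. Cd177 itself had 0.113 to 0.477 FPKM in the WT group and 0.022 to 0.109 FPKM in the KO group, too low to check the genotype of the neutrophils. Of 16 microglia and macrophage markers, Cd68 and Tyrobp were among the highest (363 to 377 and 135 to 139 FPKM in the WT group), and Sall1 and C1qa were listed at 0 in all libraries. P2ry12, a marker of resident microglia chosen after its values were seen, had at most 0.148 FPKM. Tmem119, Aif1 and C1qb, also named after their values were seen, had at most 0.79, 0.282 and 0.222 FPKM. Of the 16 markers 10 averaged at least 1 FPKM, so the labelled cell type rests here on part of the macrophage transcripts. The summed level of these 16 markers was 829.7 to 866 FPKM in the WT group and 974 to 1016 FPKM in the KO group. Neutrophils also carry TLRs, and the 16 neutrophil markers summed to 2.08 to 2.37 FPKM in the WT group and 1.02 to 1.38 FPKM in the KO group. Csf3r, Cxcr2 and S100a8 were their highest members, none above 0.744 FPKM, and Ly6g, S100a9, Mpo, Elane, Ctsg, Ltf and Retnlg were listed at 0 everywhere. The 8 astrocyte and oligodendrocyte markers summed to 0.298 to 0.379 FPKM in the WT group and 0.280 to 0.352 FPKM in the KO group, with Mbp and Gfap among the highest and Aqp4, Slc1a3, Aldh1l1 and Olig2 listed at 0.

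Of the 10 genes, 9 had a mean of at least 1 FPKM and were tested. With KO neutrophils Cd14, Tlr2 and Tlr9 were lower and Tlr13 was higher (limma, Benjamini-Hochberg adjusted p under 0.05 over the 11395 genes tested), while Tlr1, Tlr4, Tlr6, Tlr7 and Ly96 did not pass. These 4 calls of 9 (44.4%) lay close to the background, since 43.3% of all genes tested were called, 18.8% lower and 24.5% higher. The direction of the many small changes across the transcriptome moved with the scaling, from 2141 lower and 2789 higher on the deposited scale to 2659 lower and 2183 higher after rescaling each library to a common sum. The 4 called receptors kept their direction and their call on both scales. The median absolute log2 change was 0.78 over the 9 genes and 0.17 over all genes tested, and the median signed change was -0.30 and 0.02. The rule of the study asks for a change beyond 2-fold and an unadjusted p under 0.05, which on the log2(FPKM + 1) scale Cd14 and Tlr2 met, both lower, against 2.57% of all genes (2.02% lower). Tlr9 was 2.1-fold lower by the ratio of its mean FPKM but missed 2-fold on that scale (-0.87). In 5 of the 9 genes the groups did not overlap (Cd14, Tlr2, Tlr9 and Tlr1 lower, Tlr13 higher), against 55.8% of all genes tested (24.6% lower and 31.3% higher).

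**Figure D1:**
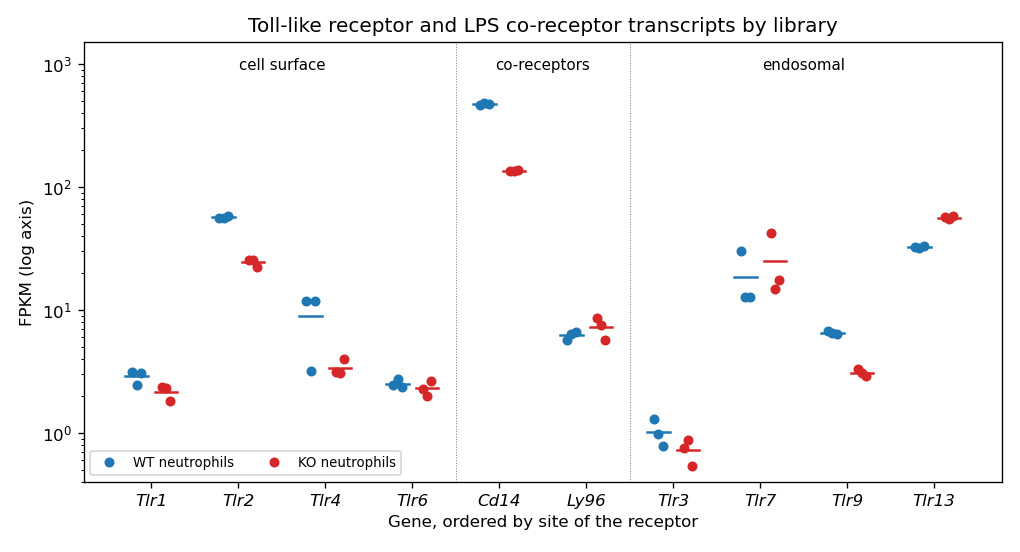
FPKM (log axis) of the 10 genes in each library, with WT neutrophils in blue and KO neutrophils in red; points are libraries and lines the means of 3. Cd14, Tlr2 and Tlr9 sit lower in all 3 KO libraries and Tlr13 higher, while Tlr4 has 1 low WT library and Tlr7 1 high library in each group.

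The stretches before the annotated starts of the TLR genes that changed are shown first. Whether they bear on the differences in level was not tested. Promoter windows from RefSeq (GRCm38.p6) were found for 6 of the 10 genes, namely Tlr1, Tlr2, Tlr3, Tlr6, Tlr9 and Tlr13, and not for Tlr4, Tlr7, Cd14 and Ly96. The printed letters end before the first base of the gene in GENCODE M21, and capitals mark matches on either strand to 4 motifs of factors active in macrophages, which were chosen after the values were seen. These were NF-κB, the interferon-stimulated response element (ISRE, 2 copies of GAAA with any 2 bases between them), AP-1 (TGANTCA) and PU.1 (GAGGAAGT).
Tlr2, chr3:83841768-83841858, minus strand: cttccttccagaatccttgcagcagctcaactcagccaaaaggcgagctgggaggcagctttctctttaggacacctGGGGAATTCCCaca
Tlr9, chr9:106222348-106222597, plus strand: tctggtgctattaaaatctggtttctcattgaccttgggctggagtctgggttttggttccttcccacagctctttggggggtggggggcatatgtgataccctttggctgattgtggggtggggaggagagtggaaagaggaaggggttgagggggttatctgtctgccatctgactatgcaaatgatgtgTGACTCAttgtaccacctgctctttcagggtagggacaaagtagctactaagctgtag
Tlr13, chrX:106143025-106143203, plus strand: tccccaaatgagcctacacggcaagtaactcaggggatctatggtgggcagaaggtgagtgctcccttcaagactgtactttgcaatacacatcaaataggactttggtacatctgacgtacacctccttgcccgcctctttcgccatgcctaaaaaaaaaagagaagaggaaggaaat

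The capitals in Tlr2 are 2 overlapping NF-κB matches, from -173 to -163 relative to the RefSeq start site. A further NF-κB match of the Tlr2 window, from -8 to 1, lay beyond the printed letters. The window of Tlr9 held an AP-1 match from -58 to -52 and, past the start site, a PU.1 match from 10 to 17. No match to the 4 motifs was found in the window of Tlr13. Among the genes that were not called, Tlr3 had an NF-κB match, 1 of the 2 windows of Tlr6 had 2 overlapping ISRE matches, and 1 of the 2 windows of Tlr1 had a PU.1 match. Of all 32851 windows of the same 300 bases, 4.51% held an NF-κB match, 3.44% an ISRE match, 7.81% an AP-1 match and 3.2% a PU.1 match. A match is a description of letters and not a bound site.

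Among the co-receptors, Cd14 had the highest level and the largest change of the group. CD14 binds LPS and lipopeptides, hands them to TLR4 and TLR2, and brings TLR4 into endosomes. Cd14 (ENSMUSG00000051439, chromosome 18, 36725067 to 36726798, minus strand, GRCm38, GENCODE M21) had 468, 482 and 472 FPKM in the WT group and 135, 136 and 138 FPKM in the KO group. Every KO library lay far below every WT library, and libraries of a group were within 1.03 times of each other. The means were 474 ± 7.0 and 136 ± 1.66 FPKM (SD, n = 3 each), 3.48-fold lower in the KO group. The log2 change was -1.79 (SE 0.019, 95% interval -1.84 to -1.74, limma adjusted p = 4.09e-08), larger in size than that of 99.3% of the genes tested. Its level ranked above 99.4% of the genes tested in the WT group and 97.5% in the KO group, so it remained an abundant transcript in both. In these bulk libraries, fewer cells with a transcript and less of it per cell cannot be told apart.

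Ly96 encodes MD-2, the small secreted protein that fills with LPS on the outer face of TLR4. Ly96 (chromosome 1, 16688051 to 16709611, plus strand) had 5.72, 6.45 and 6.59 FPKM in the WT group and 8.55, 7.61 and 5.75 FPKM in the KO group. The groups overlapped through KO replicate 3, and the log2 change of 0.18 did not pass (95% interval -0.13 to 0.50, limma adjusted p = 0.305). Without KO replicate 3 it was 0.32, with an adjusted p of 0.0293 (limma). Cd14 and Ly96 thus did not show the same picture: the first fell, and the interval of the second reached from a small fall to a rise.

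The cell-surface receptors were led by Tlr2. Tlr2 (ENSMUSG00000027995, chromosome 3, 83836272 to 83841767, minus strand) had 55.6, 56.4 and 58.1 FPKM in the WT group and 25.5, 25.6 and 22.4 FPKM in the KO group. All KO libraries were lower than all WT libraries. The means were 56.7 ± 1.32 and 24.5 ± 1.87 FPKM (SD, n = 3 each), 2.31-fold lower in the KO group. The log2 change was -1.18 (SE 0.056, 95% interval -1.31 to -1.04, limma adjusted p = 1.65e-05). Tlr2 has 1 annotated transcript in GENCODE M21, of 3014 bases in 3 exons.

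The partners of TLR2 were expressed at much lower levels, and neither was called. Tlr1 (chromosome 5, 64924679 to 64933563, minus strand) had 3.14, 2.46 and 3.06 FPKM in the WT group and 2.36, 2.34 and 1.81 FPKM in the KO group. Its groups did not overlap, but the log2 change of -0.30 missed the threshold (95% interval -0.55 to -0.04, limma adjusted p = 0.063). It passed on the common-sum scale (-0.33, limma adjusted p = 0.0467) and without WT replicate 2 (-0.38, limma adjusted p = 0.0358). Tlr6 (chromosome 5, 64952031 to 64960097, minus strand) had 2.47, 2.73 and 2.38 FPKM in the WT group and 2.29, 1.99 and 2.64 FPKM in the KO group. The groups overlapped, and the log2 change was -0.10 (95% interval -0.31 to 0.12, limma adjusted p = 0.426). Tlr1 and Tlr6 are neighbours on the same strand, and 13.6% of the 50-base words in the annotated transcripts of Tlr1 also occur in those of Tlr6. Reads from these shared stretches can be split between both genes, so their values are uncertain to that extent. No other pair of the 10 genes shared such a word.

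Tlr4, the LPS receptor proper, had a value that 1 library decided. Tlr4 (chromosome 4, 66827584 to 66930284, plus strand) had 11.8, 3.18 and 11.9 FPKM in the WT group and 3.14, 3.09 and 3.99 FPKM in the KO group. WT replicate 2 lay within the range of the KO libraries, while the other 2 WT libraries lay near 12 FPKM, about 3 times the highest KO value. Over all 6 libraries the log2 change was -1.01 (SE 0.44, 95% interval -2.08 to 0.05, limma adjusted p = 0.11). Without WT replicate 2 it was -1.56 (limma adjusted p = 0.000335). GENCODE M21 lists 4 transcripts of Tlr4, of 4077, 1866, 646 and 504 bases, and the table gives 1 value per gene, so the transcript behind each value is not known. WT replicate 2 did not stand apart for Cd14 or Tlr2, and why it did for Tlr4 was not tested.

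The endosomal receptors moved in different directions. Tlr13 was the only gene of the 9 that was called higher. Tlr13 (ENSMUSG00000033777, chromosome X, 106143204 to 106160493, plus strand), which is present in mice and recognises bacterial ribosomal RNA, had 32.6, 31.8 and 33.5 FPKM in the WT group and 56.7, 55.1 and 57.8 FPKM in the KO group. All KO libraries were above all WT libraries. The means were 32.6 ± 0.828 and 56.5 ± 1.36 FPKM (SD, n = 3 each), a 1.73-fold rise, and the log2 change was 0.78 (SE 0.030, 95% interval 0.70 to 0.85, limma adjusted p = 7.38e-06). A rise of this size was uncommon, as 95% of all genes tested lay below a log2 change of 0.53.

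Tlr9 went the other way. Tlr9 (ENSMUSG00000045322, chromosome 9, 106222598 to 106226883, plus strand), the receptor for DNA rich in unmethylated CpG, had 6.75, 6.47 and 6.35 FPKM in the WT group and 3.33, 3.07 and 2.93 FPKM in the KO group. No KO library reached the lowest WT library. The means were 6.52 ± 0.208 and 3.11 ± 0.202 FPKM (SD, n = 3 each), 2.1-fold lower in the KO group. The log2 change of FPKM + 1 was -0.87 (SE 0.055, 95% interval -1.01 to -0.74, limma adjusted p = 5.62e-05). Like Tlr2, Tlr9 has a single annotated transcript.

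Tlr7, the receptor for single-stranded RNA, was spread widely within both groups. Tlr7 (chromosome X, 167304929 to 167330558, minus strand) had 30.4, 12.8 and 12.7 FPKM in the WT group and 42.3, 14.8 and 17.7 FPKM in the KO group. Replicate 1 was more than 2 times the other libraries in each group, and the groups overlapped. The log2 change was 0.37, with a 95% interval of -0.79 to 1.53 that covers both a fall and a more than 2-fold rise (limma adjusted p = 0.568). It was -0.08 without KO replicate 1, 0.77 without WT replicate 1 and 0.32 without replicate 1 of both groups (limma adjusted p = 0.897, 0.226 and 0.0677). Tlr7 has 6 annotated transcripts, of 261 to 3897 bases. Such spread was uncommon: among the 7383 genes that averaged 5 FPKM or more, 153 (2.07%) differed by more than 2 times between libraries of a group, and Tlr4 and Tlr7 were 2 of the 6 genes described here that reached this mean.

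Tlr3, the receptor for double-stranded RNA, was the lowest of the 10 genes. Tlr3 (chromosome 8, 45395665 to 45411080, minus strand) had 1.31, 0.985 and 0.782 FPKM in the WT group and 0.760, 0.871 and 0.539 FPKM in the KO group. Its mean fell under the filter of 1 FPKM, the groups overlapped, and an exact permutation test (two-sided) gave p = 0.2, where 0.1 is the lowest that 3 libraries against 3 can reach. Its exons overlap those of an antisense gene, Gm45542, and whether the reads were counted by strand is not given in the sources used here. The other mouse TLR genes were close to absent from the table. Tlr5, the flagellin receptor, had at most 0.0333 FPKM and Tlr8 at most 0.0834 FPKM, and Tlr11 and Tlr12, which recognise a profilin of parasites, were listed at 0 in all 6 libraries.

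**Figure D2:**
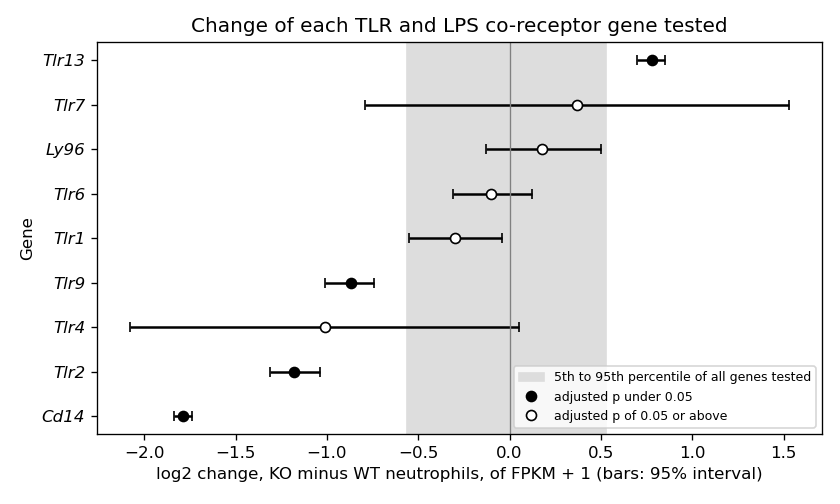
Log2 change of FPKM + 1 (KO minus WT neutrophils) of the 9 genes tested, with 95% intervals from limma; filled points have an adjusted p under 0.05, and the grey band is the 5th to 95th percentile of all genes tested (-0.56 to 0.53). Cd14, Tlr2, Tlr9 and Tlr13 lie outside the band with narrow intervals, and the intervals of Tlr4 and Tlr7 are the widest.

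The order of levels differed between the groups in one place that the spread between libraries did not blur. With WT neutrophils the order was Cd14, Tlr2, Tlr13, Tlr7, Tlr4, Tlr9, Ly96, Tlr1, Tlr6 and Tlr3, in FPKM, which is per length. Of these neighbours Tlr4 and Tlr9, Tlr9 and Ly96, and Tlr1 and Tlr6 overlapped in their ranges. With KO neutrophils the order was Cd14, Tlr13, Tlr7, Tlr2, Ly96, Tlr4, Tlr9, Tlr6, Tlr1 and Tlr3, in which Tlr7 and Tlr2, Tlr4 and Tlr9, and Tlr6 and Tlr1 overlapped. Tlr2 was thus above Tlr13 in every WT library and below it in every KO library.

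The make-up of the TLR transcripts followed from this. The 8 TLR genes summed to 144.1, 116.8 and 128.9 FPKM in the WT group and 136.5, 106.9 and 109.8 FPKM in the KO group, ranges that overlapped. Within the sum, the cell-surface receptors held 50.7%, 55.4% and 58.6% in the WT group and 24.4%, 30.9% and 28.0% in the KO group. Tlr2 alone held 38.6% to 48.3% and 18.7% to 24.0%, and Tlr13 held 22.6% to 27.3% and 41.5% to 52.7%. These shares do not depend on a common scaling of a library, but they contain the scattered values of Tlr7, which held 9.9% to 21.1% and 13.8% to 31.0%.

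**Figure D3:**
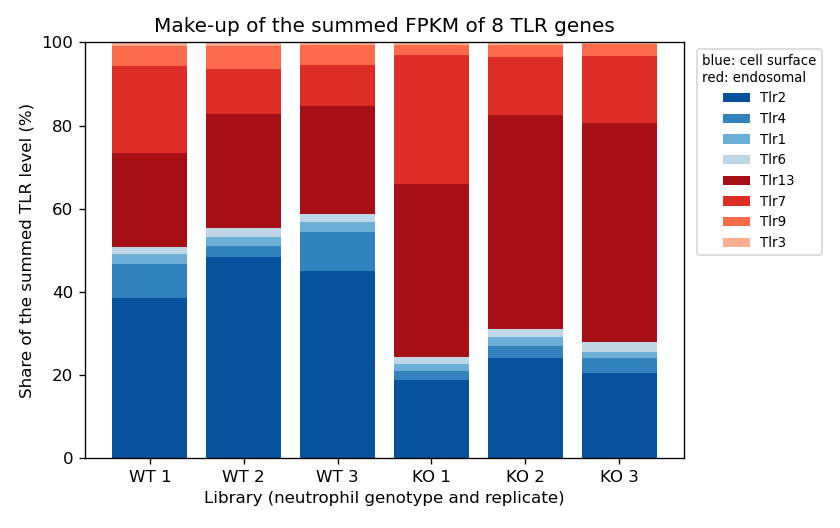
Share (%) of each of the 8 TLR genes in their summed FPKM, by library, with cell-surface receptors in blue and endosomal receptors in red. The blue part takes 50.7% to 58.6% of the bar with WT neutrophils and 24.4% to 30.9% with KO neutrophils.

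Levels of 2 genes were then compared within each library for 8 pairs, which were receptors with their partners or co-receptors and receptors of the same compartment. The ratio of Tlr1 to Tlr2 was 0.0566, 0.0437 and 0.0526 in the WT group and 0.0922, 0.0912 and 0.0810 in the KO group. The ratio of Tlr6 to Tlr2 was 0.0444, 0.0485 and 0.0410 in the WT group and 0.0897, 0.0778 and 0.118 in the KO group. Both partners were therefore scarcer than Tlr2 by more than 8-fold in every library, and relative to Tlr2 they were higher in the KO group without overlap (log2 difference 0.80 and 1.08, exact permutation p = 0.1 each, two-sided, adjusted p = 0.267 over the 8 ratios). The ratio of Tlr9 to Tlr7 also did not overlap, at 0.222, 0.507 and 0.498 in the WT group and 0.0786, 0.208 and 0.165 in the KO group (log2 difference -1.46, exact permutation p = 0.1, adjusted p = 0.267).

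The other 5 ratios overlapped between the groups. Cd14 to Tlr4 was 39.5, 152 and 39.5 in the WT group and 43.0, 44.0 and 34.6 in the KO group, so that the pair differed by a similar factor in all libraries but WT replicate 2. The log2 difference was -0.62 with all libraries and 0.03 without WT replicate 2 (exact permutation p = 0.6 and 1). Ly96 to Tlr4 had a log2 difference of 1.39, and of 2.05 without WT replicate 2 (exact permutation p = 0.2 and 0.1). Tlr2 to Tlr4 differed by -0.03, Tlr1 to Tlr6 by -0.28 and Tlr13 to Tlr7 by 0.40 on the log2 scale (exact permutation p = 1, 0.5 and 0.5).

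**Figure D4:**
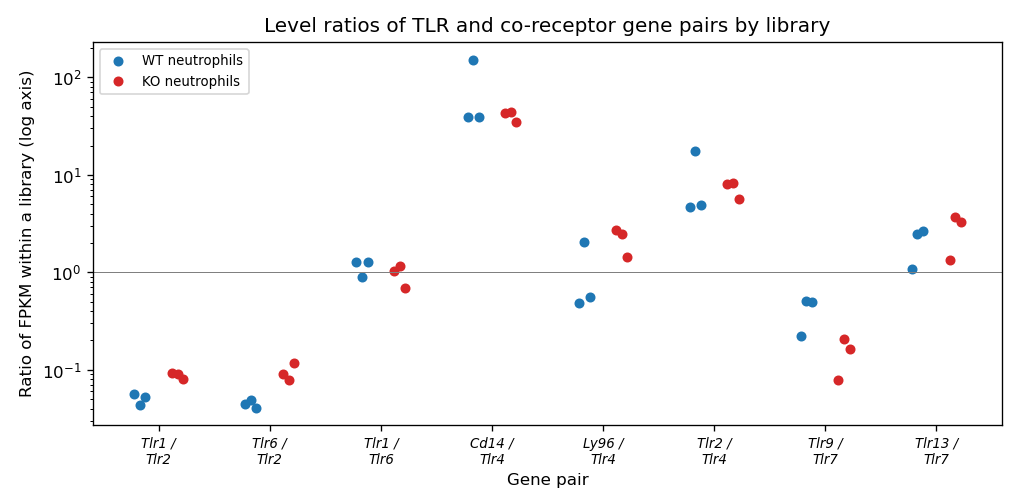
Ratio of FPKM of 2 genes within each library (log axis) for 8 pairs of TLR and co-receptor genes, WT neutrophils in blue and KO neutrophils in red; the grey line marks equal levels. The ratios of Tlr1 and Tlr6 to Tlr2 are higher in every KO library, and the ratios to Tlr4 spread through 1 WT library.

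The proteins that fold, carry, cut or assist the receptors showed both directions. Of 13 accessory and trafficking genes 12 were tested, 3 were lower and 4 higher, and their median log2 change was 0.08, beside 18.8% lower and 24.5% higher of all genes tested. Slc15a3, an endolysosomal peptide and histidine transporter, had the largest change, from 97.1, 96.0 and 99.9 FPKM in the WT group to 16.6, 16.2 and 15.5 FPKM in the KO group (log2 change -2.53, limma adjusted p = 7.33e-08). Lgmn, a lysosomal protease known to cut TLR9, rose from 289.5, 287 and 289 FPKM to 426, 419.8 and 420.2 FPKM (log2 change 0.55, limma adjusted p = 1.94e-06). Cd180, a TLR-like surface receptor without a signalling domain, rose from 10.5, 10.2 and 10.3 FPKM to 16.4, 16.6 and 16.99 FPKM (log2 change 0.64, limma adjusted p = 2.07e-05). Unc93b1, which carries the endosomal TLRs out of the endoplasmic reticulum and was named after its values were seen, had a log2 change of -0.24 (limma adjusted p = 0.00391).

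Among 20 adaptors and kinases 19 were tested, 8 were lower and 3 higher, with a median of -0.10 (all genes tested, 18.8% lower and 24.5% higher). Pik3ap1, an adaptor that links TLRs to PI3 kinase, fell from 73.4, 71.6 and 73.2 FPKM to 45.8, 44.5 and 43.7 FPKM (log2 change -0.69, limma adjusted p = 6.2e-06). The kinase genes Ikbke and Irak2 fell by 1.06 and 1.09 on the log2 scale (limma adjusted p = 7.38e-06 and 0.000601). Myd88, the adaptor shared by most TLRs and likewise named after its values were seen, had 20.4 ± 0.17 and 21.4 ± 0.538 FPKM (SD, n = 3 each) and was not called (limma adjusted p = 0.13).

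Genes that damp TLR signals were also read. Of 11 negative regulators 10 were tested, 7 were lower and 0 higher (limma, adjusted p under 0.05), with a median of -0.26, where all genes tested had 18.8% lower and 24.5% higher. At an unadjusted p under 0.05 none of the 3 uncalled genes was higher either. Nfkbia, the inhibitor that holds NF-κB in the cytoplasm, fell from 74.6, 76.0 and 71.4 FPKM to 14.0, 12.6 and 11.9 FPKM (log2 change -2.44, limma adjusted p = 1.1e-06). Irak3, a kinase relative that blocks IRAK signalling, fell from 7.14, 7.14 and 7.52 FPKM to 0.870, 1.08 and 1.10 FPKM (log2 change -2.04). Tnfaip3, the ubiquitin-editing enzyme A20, fell from 7.90, 7.59 and 7.87 FPKM to 1.67, 1.95 and 1.86 FPKM (log2 change -1.64).

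The pathway lists also held 14 genes that TLR ligands are known to induce. Of these 12 were tested and 12 were lower (18.8% of all genes tested were), with a median log2 change of -3.37. In 6 of the 12 the KO mean was under 1 FPKM, so that they passed the filter through the WT group and had to differ, and the count and the median are in part set by the filter. Ifnb1 and Il12b were not tested. Acod1, the itaconate-producing enzyme, had 354 ± 2.08 FPKM in the WT group and 13.3 ± 0.443 FPKM in the KO group (SD, n = 3 each). Cxcl2, a neutrophil-attracting chemokine, and Ptgs2, the inducible cyclooxygenase, had log2 changes of -6.25 and -5.09. Cxcl2, with a KO mean of 0.596 FPKM, is 1 of the 6 genes that passed the filter through the WT group. The list of induced genes was chosen with earlier results of these data known.

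**Figure D5:**
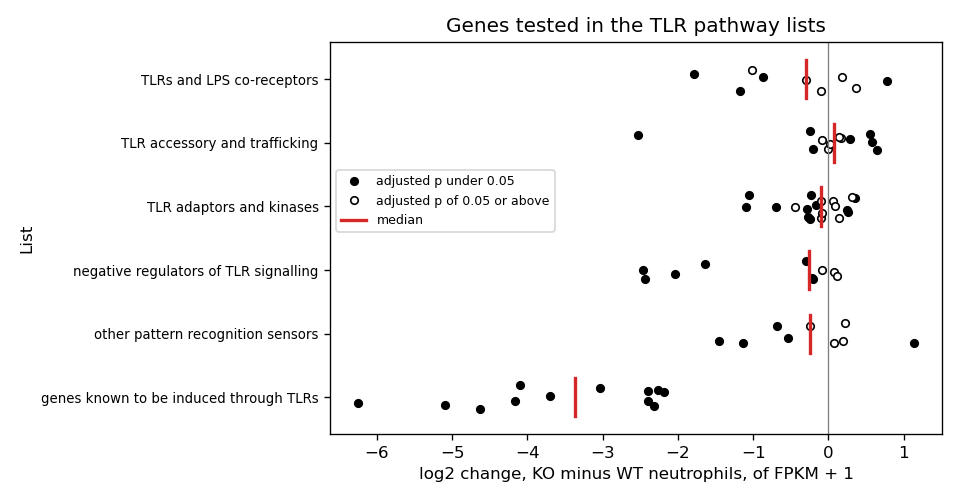
Log2 change of FPKM + 1 (KO minus WT neutrophils) of each tested gene in 6 lists; points are genes, filled where the adjusted p is under 0.05, and red lines are medians. The receptors and co-receptors spread from -1.79 to 0.78 around a median of -0.30, and the 12 genes known to be induced through TLRs lie between -6.25 and -2.18. Of these 12, 6 passed the filter through the WT group only, among them Cxcl2 at -6.25.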

How the data were processed

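The authors deposited 1 table of FPKM values, with 1 column per library and replicates not pooled. The submitters' processing notes name fastp 0.17.1, HISAT2 2.1.0, DESeq2 1.18.1 and R 3.4.3. The quantification program, genome build and annotation are not given in the sources used here, and the labels and the methods name different library kits and sequencers. Symbols, positions and transcripts came from GENCODE M21 (GRCm38), where 55154 of 55335 identifiers (99.67%) were found. Groups and replicate numbers came from the titles.

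Depth was estimated from the most common step between low values. Only 18.2% to 19.4% of low values were whole fragments within 0.05, against 10% by chance, so counts were not recovered and no count test was run. Groups were compared with limma 3.58.1 under R 4.3.3 (lmFit, eBayes with trend) on log2(FPKM + 1), without covariates, for genes averaging 1 FPKM or more, at a Benjamini-Hochberg adjusted p under 0.05. Such fold changes understate those of low genes. Fits were tested on simulated data. Exact permutation tests were two-sided. Alternatives were a pseudocount of 0.1, no filter, a mean of at least 5 FPKM, 4 other scalings, no variance trend, array weights, a replicate block and leaving out each library. All TLR and co-receptor genes were named, and of each list the 3 genes with the smallest p (of marker lists, the 3 highest and those at 0, of which 2 genes are not reported here). The genes, lists and tests were chosen with earlier results of these data known.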

Additional observations from a re-analysis of the deposited data

How the results depend on the processing

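Of 384 comparisons of a result with an alternative, 367 left the direction and the call as they were (for a count, a factor of at most 1.5; for an untested value, a shift below the replicate spread), 7 moved further, 5 newly passed the threshold, 5 reversed and 0 lost a call. The calls of Cd14, Tlr2, Tlr9 and Tlr13 held under every alternative that tested them, and only the filter of 5 FPKM left out Tlr9. The number of these genes called was 4 to 6 when 1 library was left out. The genes over 2-fold numbered 441 with a pseudocount of 0.1, which enlarges the changes of low genes, and the log2 difference of Tlr3 was then -0.45. On the common-sum scale Tlr1 passed at -0.33. Under the filter of 5 FPKM, which tests fewer genes, 4 negative regulators and 2 other pattern recognition sensors were called. Without replicate 1 of both groups, chosen after seeing the data, 1841 genes were higher, and 6 adaptors and kinases and 8 sensors were called; the cause was not tested.

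Without each library in turn, the log2 change was -0.38 to -0.21 for Tlr1, -1.56 to -0.74 for Tlr4, 0.07 to 0.32 for Ly96 and -0.08 to 0.77 for Tlr7. The log2 ratio differences were -0.94 to 0.03 for Cd14 to Tlr4, -0.36 to 0.60 for Tlr2 to Tlr4 and -0.02 to 0.87 for Tlr13 to Tlr7. Replicate numbers showed no pairing over all genes, as deviations of same-numbered libraries correlated at -0.075, -0.052 and -0.005. No library correlated best with its own number. With 3 libraries per group, these correlations cannot decide whether same-numbered libraries shared a culture or preparation. With the replicate block Tlr7 passed at 0.37 (limma adjusted p = 0.0173), and 4212 genes were called. No count test was run, since whole reads were not recovered. The value of 1 fragment on a transcript of 1 kilobase was estimated at 0.0516 to 0.0638 FPKM. Every value of Tlr5 lay below it, but 1 fragment gives less on a longer transcript, and those of Tlr5 reach 3818 bases.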

Other observations

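Sensors of microbial or misplaced molecules outside the TLR family were read in the same fit. Of 12 genes 9 were tested, 4 were lower and 1 higher in the KO group, with a median log2 change of -0.25, beside 18.8% lower and 24.5% higher of all genes tested. The means of 2 of the 9 were under 1 FPKM in the KO group, so these passed the filter through the WT group. Zbp1, a sensor of left-handed nucleic acid, was listed at 0 in all 6 libraries. Clec7a, the receptor for fungal β-glucan (dectin-1), rose from 8.98, 9.0 and 9.12 FPKM in the WT group to 20.3, 21.7 and 21.4 FPKM in the KO group (log2 change 1.14, limma adjusted p = 3.71e-06). Ddx58, which encodes the cytosolic RNA sensor RIG-I, fell from 6.08, 5.87 and 6.09 FPKM to 1.46, 1.39 and 1.80 FPKM (log2 change -1.46, limma adjusted p = 2.03e-05). Nlrp3, the sensor of an inflammasome, fell from 15.9, 17.3 and 18.8 FPKM to 7.14, 7.92 and 7.08 FPKM (log2 change -1.13, limma adjusted p = 5.58e-05). The cytosolic DNA sensors Cgas and Aim2, named after their values were seen, had log2 changes of 0.20 and 0.22 and were not called (limma adjusted p = 0.326 and 0.0649).

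Of the 16 microglia and macrophage markers 10 were tested, 2 were lower and 6 higher, with a median of 0.22, against 18.8% and 24.5% of all genes tested. Adgre1, which encodes F4/80, fell from 99.8, 99.7 and 104 FPKM to 40.0, 40.4 and 37.5 FPKM, while Trem2, a lipid-sensing receptor, rose from 11.2, 13.2 and 11.8 FPKM to 27.5, 28.1 and 28.2 FPKM. Markers of the same cells therefore went in both directions. Whether the make-up of the cells differed between the groups was not tested.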
